A study of Bos taurus with 29 samples.

Results

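RAB proteins are small GTPases that act as membrane switches. A RAB loaded with GTP sits on a membrane and recruits effectors that move, tether or fuse vesicles, and a RAB holding GDP is carried through the cytosol. Each membrane of the secretory and endocytic routes has its own RAB set, so the family marks the steps of vesicle traffic. In skin, keratinocytes use these routes to recycle integrins and junction proteins, to secrete lipid and protein, and to take up melanosomes.

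The RAB genes were taken as the genes whose symbol is RAB followed by a number and at most a letter and a digit, and which are listed in all 5 deposited tables. These were 38 of 10629 genes listed in every table, and all 38 passed the filter on low counts, so none drops out of the counts below. Digital dermatitis is an infectious, ulcerating skin disease of the bovine foot, and messenger RNA was measured by 3′ end sequencing in punch biopsies of Holstein-Friesian cattle. M0 (5 libraries) was control skin taken post mortem at a slaughterhouse, above the interdigital cleft. The lesion groups were named for the M stage of the lesion, which in the usual M scoring runs from early (M1, 5 libraries) and acute ulcer (M2, 5) to healing (M3, 5), chronic (M4, 5) and chronic with a renewed active area (M4.1, 4). The lesions were sampled on 6 dairy farms, except for 2 M1 samples from the slaughterhouse whose replicate numbers the labels do not give. Animal ages are not given in the labels, and the labels do not state that replicates are different animals, so p-values measure the spread between these samples. Site, source and disease cannot be told apart in any comparison with M0.

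Counts summed over the joined genes ran from 2858186 to 5399615 in the 29 libraries. Basal keratinocyte markers such as KRT5 and KRT14 were present in every library, with a summed level (5 markers) of 8510 to 11545 CPM in M0 and 26087 or more in every lesion library, where CPM is a gene's count relative to the library's effective size, on the usual CPM scale. The 3 wound keratinocyte markers tested (KRT6A, KRT6B and KRT17) summed to 1002 to 2958 CPM in M0 and to 33067 or more in every lesion library. These 3, KRT5 and KRT14 were called higher in every stage, but the basal markers did not all rise. Of the 5 basal markers, 3, 3, 2, 3 and 3 were called higher from M1 to M4.1. In the same order, 1, 1, 1, 1 and 2 were called lower. Hair follicle, sweat gland and sebaceous gland markers fell in the lesions. All 7 sweat and apocrine gland markers and all 5 hair follicle markers tested were called lower in every stage, and 4 of 5 sebaceous markers were, with 1 higher. In tissue samples such as these, fewer cells of a type and less RNA per cell cannot be told apart. All fold changes below are on the log2 scale with an approximate standard error, from an edgeR quasi-likelihood fit over all 10371 tested genes. A gene is called, and its level said to rise or fall, where the p-value adjusted over all of these genes is under 0.05.

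The family leaned towards higher levels in lesions. In M1, 13 of 38 RAB genes were higher than in M0 and 5 lower, where 21.9% of all tested genes were higher and 21.1% lower. M2 had 14 higher and 6 lower, beside 21.7% and 20.5% of all genes. M3 had 14 and 3, beside 20.4% and 19%. M4 had 16 and 3, beside 21.3% and 21.1%, and M4.1 had 12 and 4, beside 20.2% and 18.9%. As shares of the 38 genes, the higher calls were 34.2%, 36.8%, 36.8%, 42.1% and 31.6% in stage order. The lower calls were 13.2%, 15.8%, 7.89%, 7.89% and 10.5%. The stages share the same 5 M0 libraries, so these counts are not independent of each other. Without M0 replicate 3, 8 instead of 13 RAB genes were higher in M1.

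**Figure D1:**
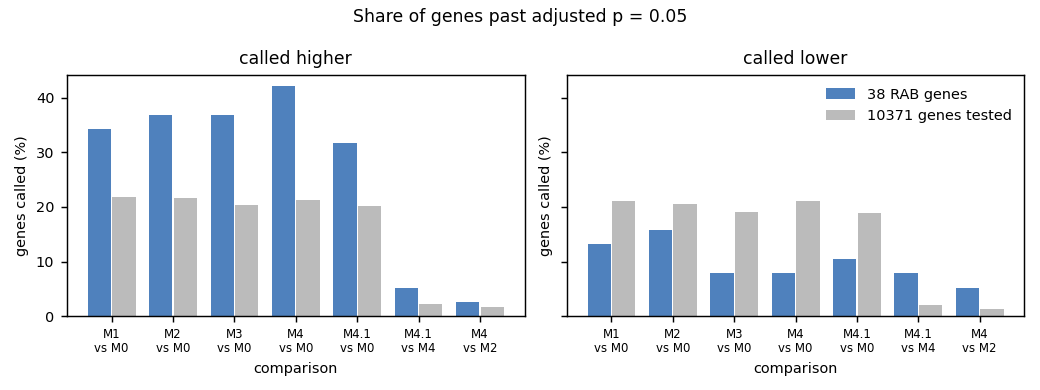
Percentage of the 38 RAB genes (blue) and of all 10371 tested genes (grey) past adjusted p = 0.05, called higher (left) and lower (right), by comparison on the horizontal axis. In each comparison with M0 the blue bar is above the grey bar for higher calls, for example 42.1% against 21.3% in M4, and below it for lower calls.

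The shifts were small in size. The median RAB fold change was 0.22, 0.26, 0.29, 0.31 and 0.22 in stage order, while the median of all genes lay between -0.02 and 0.00. The median absolute change was 0.41, 0.51, 0.40, 0.49 and 0.45, beside 0.52, 0.51, 0.48, 0.50 and 0.51 for all genes. Summed over the 38 genes, the level was 1826 to 2013 CPM in M0 and 2157 to 2642 in M1. It was 2323 to 2740 in M2, 2385 to 2938 in M3, 2510 to 2936 in M4 and 2251 to 2619 in M4.1. Every lesion library therefore lay above every M0 library in summed RAB level, as it did in the basal and wound keratinocyte sums given above. The part of these keratinocyte shifts in the RAB rises was not tested. The separation in summed RAB level depends on the TMM scaling of library size. TMM factors were 1.04 to 1.29 in M0 and 0.631 to 1.22 in lesions, with 0.631 to 0.912 in M4. Without these factors, the summed RAB share of reads overlaps between M0 and lesion libraries. RAB genes also varied little between libraries of a group. Their median within-group coefficient of variation was 17.2%, beside 25.5% over all tested genes. RAB6A, a Golgi member, had the smallest value (a median of 5.31% over the 6 groups), and RAB29 the largest (39.2%), with only 276 reads in all libraries together.

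Across the 5 stages, 9 RAB genes were called higher in every one and 2 lower in every one. A further 12 were higher in some stages and 5 lower in some, and 10 were called in no comparison with M0. No RAB gene was called higher in 1 stage and lower in another. Over all tested genes, 13.1% were higher in all 5 stages, 11.5% lower in all 5, and 38.4% called in none. The 9 that rose throughout were RAB1A, RAB6A and RAB18 of the endoplasmic reticulum and Golgi, RAB5C of early endosomes, RAB11A of recycling endosomes, RAB7A and RAB12 of late endosomes, and RAB3D and RAB10 of vesicles bound for the plasma membrane. The 2 that fell throughout were RAB27A and RAB30.

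**Figure D2:**
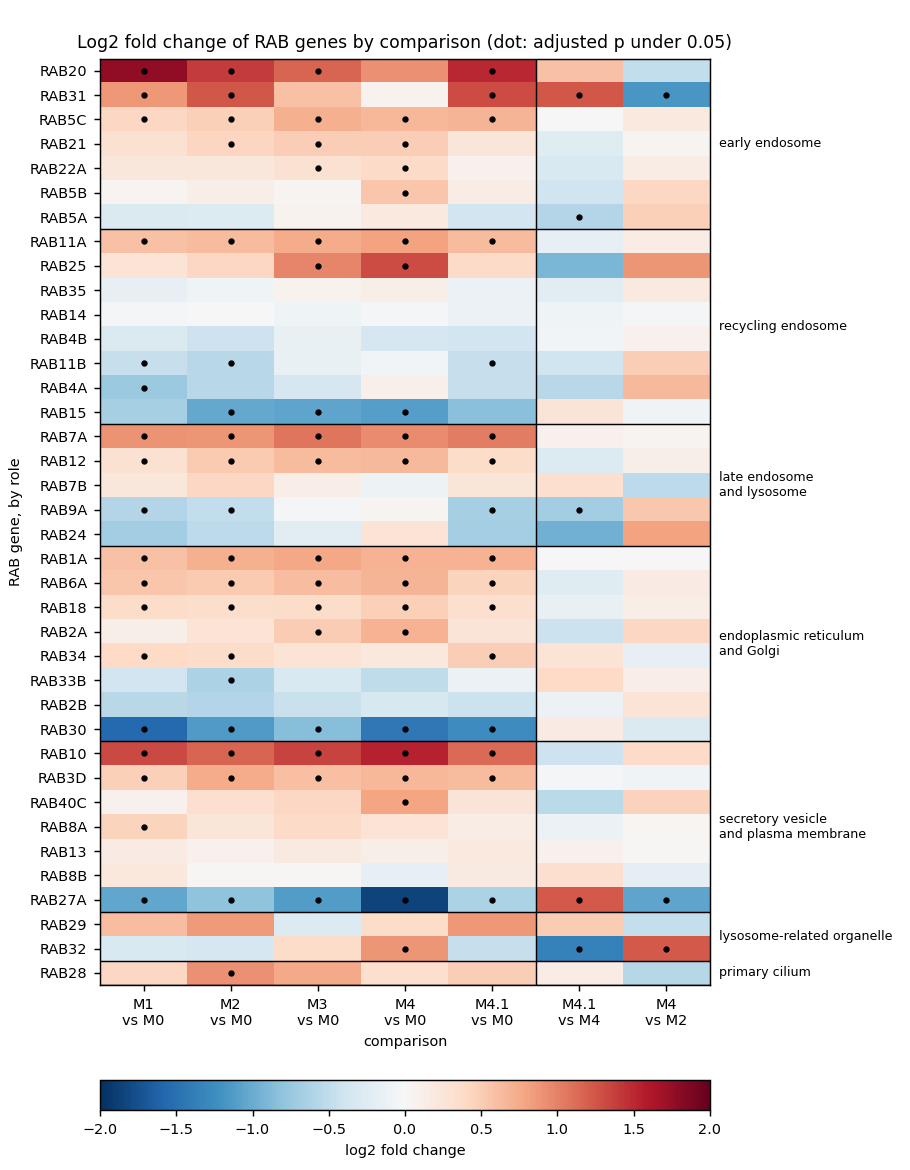
Log2 fold change (colour, blue lower and red higher) of the 38 RAB genes, grouped by role on the vertical axis, in 7 comparisons on the horizontal axis, with a dot where adjusted p is under 0.05. RAB10, RAB7A, RAB1A, RAB6A, RAB11A, RAB5C, RAB12, RAB18 and RAB3D carry dots in all 5 columns against M0, RAB27A and RAB30 do so in blue, and few dots stand in the last pair of columns.

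Early endosome RABs govern the first sorting of cargo taken up from the surface. Of 7 such genes, 3 rose in M1, 4 each in M2, M3 and M4 and 3 in M4.1, and none of them was called lower against M0. Over the stages, 20.2% to 21.9% of all tested genes were higher and 18.9% to 21.1% lower. RAB20 (ENSBTAG00000049416), found on endosomes and phagosomes, showed the largest rise of the family in M1, M2 and M4.1. Its levels were 8.09, 5.53, 2.91, 3.32 and 5.73 CPM in M0 and 22.8, 14, 11.6, 13.6 and 26.1 in M1. They were 17.6, 14.4, 16.4, 11 and 8.46 in M2 and 19.2, 14.2, 8.45, 9.21 and 5.08 in M3. In M4 they were 2.0, 12.3, 8.86, 17 and 7.07, and in M4.1 9.84, 13.1, 16.2 and 18.9. Every M1, M2 and M4.1 library was above every M0 library, whereas the M3 and M4 libraries overlapped M0, and the lowest M4 library was below all of M0. The change was 1.78 ± 0.38 in M1 (adjusted p = 0.00038), 1.4 ± 0.38 in M2 (adjusted p = 0.0037), 1.16 ± 0.38 in M3 (adjusted p = 0.018) and 1.5 ± 0.39 in M4.1 (adjusted p = 0.0033). In M4 it was 0.91 ± 0.39 and missed the threshold (adjusted p = 0.059). The M3 call ended without M0 replicate 4 or M3 replicate 1, with an adjusted p of up to 0.091.

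RAB31 (ENSBTAG00000046533), which moves cargo between the trans-Golgi and endosomes, was called higher than in M0 in M1, M2 and M4.1. Its levels were 40.1, 19.8, 18.1, 34.4 and 29 CPM in M0 and 42.1, 86.8, 54.5, 21.8 and 50.7 in M1. They were 67.7, 49.0, 88.3, 67.3 and 62.3 in M2 and 68.3, 27.8, 36.0, 40.9 and 40.6 in M3. In M4 they were 27.2, 25.8, 30.9, 37.9 and 26.9, and in M4.1 79.4, 36.1, 98.6 and 66.8. The M2 libraries all lay above M0 and above M4, while the M4 libraries lay within the M0 range. RAB31 rose by 0.86 ± 0.29 in M1 (adjusted p = 0.018), 1.24 ± 0.29 in M2 (adjusted p = 0.0011) and 1.31 ± 0.30 in M4.1 (adjusted p = 0.0012). In M3 the value was 0.59 ± 0.29 (adjusted p = 0.11) and in M4 0.07 ± 0.29 (adjusted p = 0.87). The M1 call ended without M0 replicate 2 or 3 or M1 replicate 2, and the value without that M1 library was 0.58.

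The RAB5 paralogs drive fusion of early endosomes. RAB5C rose in every stage, by 0.41, 0.47, 0.71, 0.67 and 0.68 in stage order, from 41.3 ± 4.02 CPM in M0 to 67.3 ± 14.6 in M3 (mean ± SD, n = 5 each). Its M1 call (adjusted p = 0.024) ended without M0 replicate 3 or 5 or M1 replicate 1. RAB5B was called only in M4 (0.55 ± 0.21, adjusted p = 0.038), and this ended with a library left out in 6 of 10 cases. RAB5A was called in no comparison with M0, with values of -0.29, -0.28, 0.07, 0.20 and -0.38. Whether the paralogs differ from each other in their change was not tested, and close paralogs such as RAB5A, RAB5B and RAB5C, or RAB11A and RAB11B, may share reads, so their split is uncertain. RAB21, which escorts integrins into the cell, rose in M2, M3 and M4 by 0.43, 0.49 and 0.49. RAB22A rose in M3 and M4 by 0.31 and 0.38, and the first of these calls ended in 5 of 10 leave-outs.

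Recycling endosome RABs return receptors and adhesion proteins to the surface and here both directions occurred. Of 8 genes, 1, 1, 2, 2 and 1 rose in stage order, and 2, 2, 1, 1 and 1 fell. These counts lie near the shares of all tested genes, 20.2% to 21.9% higher and 18.9% to 21.1% lower. RAB11A (ENSBTAG00000018959), the central recycling RAB, measured 122 to 171 CPM in M0 and at least 194 in every lesion library, so the groups did not overlap in any stage. Its rises were 0.59 ± 0.13, 0.64 ± 0.13, 0.74 ± 0.13, 0.80 ± 0.13 and 0.63 ± 0.13, with adjusted p of 0.0004, 0.00016, 3.5e-05, 1e-05 and 0.00042. Its paralog RAB11B fell in M1, M2 and M4.1 (-0.46, -0.55 and -0.46). In M3 and M4 RAB11B stood at -0.15 and -0.06, short of the threshold. The M4.1 call of RAB11B ended without M0 replicate 3 or M4.1 replicate 4.

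RAB25 (ENSBTAG00000018914), the epithelial member of the RAB11 subfamily, rose in the healing and chronic stages. M0 libraries measured 19.3, 19.3, 18.7, 10.2 and 18.3 CPM, M3 libraries 22.0, 34.9, 24.4, 36.5 and 51.2 and M4 libraries 53.5, 31.5, 46.6, 31.3 and 49.5. All M3 and all M4 libraries exceeded all of M0. The rises were 0.97 ± 0.28 in M3 (adjusted p = 0.0076) and 1.31 ± 0.28 in M4 (adjusted p = 0.00046), the latter among the 3 largest of the family. M1, M2 and M4.1 libraries, at 10.4 to 31.4, 15.7 to 34.8 and 15.6 to 31.3 CPM, overlapped M0 and gave 0.27, 0.42 and 0.38, none past the threshold. RAB15, an endocytic RAB best known from neurons, fell in M2, M3 and M4, with changes of -1.03 ± 0.35, -1.06 ± 0.36 and -1.1 ± 0.36. These calls all ended without M0 replicate 5 (13.4 CPM, the highest RAB15 value of all libraries), with adjusted p of 0.071, 0.072 and 0.056, and the M3 call also ended without M3 replicate 3. RAB4A, a RAB of fast recycling, fell in M1 only (-0.75 ± 0.26, adjusted p = 0.023), and that call ended without M0 replicate 2 or M1 replicate 1 or 2. RAB4B, RAB14 and RAB35 were called in no comparison.

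Late endosome and lysosome RABs carry cargo to degradation. Of 5 genes, 2 rose in every stage, beside 13.1% of all tested genes. RAB7A (ENSBTAG00000010193), which directs late endosomes to lysosomes, was among the 3 largest rises in M1, M3 and M4. M0 libraries measured 32.0, 45.4, 36.3, 30.1 and 37.8 CPM and M1 libraries 83.2, 71.6, 84.3, 41.3 and 58.4. M2 libraries measured 73.1, 59.5, 65.2, 55.1 and 83.4, and M3 libraries 65.0, 77.5, 74.9, 79.6 and 85.4. M4 libraries measured 73.1, 80.8, 59.1, 61.2 and 75.2, and M4.1 libraries 83.8, 89.8, 61.1 and 62.5. A single lesion library, M1 replicate 4 at 41.3 CPM, fell inside the M0 range. The rises were 0.90 ± 0.17, 0.89 ± 0.17, 1.07 ± 0.17, 0.94 ± 0.17 and 1.03 ± 0.17 in stage order, close to a doubling at 1.87, 1.85, 2.1, 1.92 and 2.04-fold, with adjusted p of 8e-05, 9.9e-05, 1e-05, 4.7e-05 and 3.5e-05. RAB12, which sends transferrin receptor to degradation, rose by 0.30, 0.53, 0.63, 0.65 and 0.37, and its M1 call ended without M0 replicate 1 or 5 or M1 replicate 2 or 3. RAB9A, which returns mannose 6-phosphate receptors to the Golgi, fell in M1, M2 and M4.1 (-0.58, -0.50 and -0.66), the M2 call ending without M2 replicate 2 or 4. In M3 and M4 RAB9A was at -0.03 and 0.05 (adjusted p = 0.89 and 0.86). RAB7B and RAB24 were not called.

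RABs of the endoplasmic reticulum and Golgi run the early secretory route. Of 8 genes, 4 rose in each stage, and 1 fell in each except M2, where 2 fell. Beside these, 20.2% to 21.9% of all tested genes were higher and 18.9% to 21.1% lower. RAB1A (ENSBTAG00000016720), needed for transport from the endoplasmic reticulum to the Golgi, measured 166 to 204 CPM in M0 and 235 or more in every lesion library. Its rises were 0.59 ± 0.10, 0.71 ± 0.10, 0.77 ± 0.11, 0.70 ± 0.10 and 0.70 ± 0.11, with adjusted p of 4.6e-05, 4.3e-06, 1.7e-06, 5.5e-06 and 1.2e-05. RAB6A, which serves traffic out of and back to the Golgi, rose by 0.56, 0.52, 0.61, 0.68 and 0.45, and RAB18, linked to lipid droplets and the endoplasmic reticulum, by 0.37, 0.35, 0.37, 0.48 and 0.34. The M4.1 call of RAB18 was the least firm of these (adjusted p = 0.042), ending in 8 of 9 leave-outs, and its M1, M2 and M3 calls ended in 2, 6 and 2 of 10. RAB2A rose in M3 and M4 (0.51 and 0.69), and RAB34 in M1, M2 and M4.1 (0.40, 0.37 and 0.49), where the M1 and M2 calls ended in 4 and 3 of 10 leave-outs.

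Against this direction, RAB30 (ENSBTAG00000002417), a Golgi RAB, fell in every stage and had the largest fall of the family in M1, M2 and M4.1. M0 libraries measured 19.9, 18.1, 11, 21.7 and 16.8 CPM and M1 libraries 6.44, 6.59, 7.45, 3.78 and 5.39. M2 libraries measured 3.09, 12.6, 8.18, 8.26 and 7.56, and M3 libraries 7.78, 8.46, 7.97, 12.2 and 12.9. M4 libraries measured 6.79, 9.01, 4.27, 3.63 and 9.05, and M4.1 libraries 7.62, 8.50, 5.33 and 7.84. The groups did not overlap in M1, M4 and M4.1, and M0 replicate 3 at 11 CPM reached into the M2 and M3 ranges. The changes were -1.55 ± 0.29, -1.14 ± 0.28, -0.85 ± 0.28, -1.43 ± 0.29 and -1.26 ± 0.30, with adjusted p of 7.4e-05, 0.0016, 0.016, 0.00023 and 0.0015. None of these calls ended with any single library left out. RAB33B, another Golgi RAB, fell in M2 alone (-0.64 ± 0.26, adjusted p = 0.043), a call that ended in 5 of 10 leave-outs.

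RABs of secretory vesicles and the plasma membrane bring vesicles to the cell surface. Of 7 genes, 3, 2, 2, 3 and 2 rose in stage order and 1 fell in each stage. Beside these, 20.2% to 21.9% of all tested genes were higher and 18.9% to 21.1% lower. RAB10 (ENSBTAG00000000985), which carries membrane proteins to the surface in polarized epithelium, was among the 3 largest rises in every stage. M0 libraries measured 74.0, 66.2, 78.3, 56.5 and 90.0 CPM and M1 libraries 190, 169, 218, 201 and 135. M2 libraries measured 168, 142, 155, 169 and 183, and M3 libraries 150, 180, 164, 217 and 222. M4 libraries measured 281, 179, 192, 187 and 223, and M4.1 libraries 158, 194, 151 and 136. The lowest of the 24 lesion libraries, at 135 CPM, stood above the highest M0 library, at 90.0 CPM. The rises were 1.32 ± 0.15, 1.16 ± 0.15, 1.35 ± 0.15, 1.54 ± 0.15 and 1.13 ± 0.16, which are 2.5, 2.24, 2.55, 2.91 and 2.19-fold, with adjusted p of 1.1e-07, 8.2e-07, 9.1e-08, 8e-09 and 3.1e-06. RAB3D, a RAB of regulated secretory granules, rose by 0.48, 0.74, 0.60, 0.67 and 0.63. Its M1 call (adjusted p = 0.028) ended in 5 of 10 leave-outs. RAB8A, a partner of RAB10 in surface delivery, rose in M1 only (0.44, adjusted p = 0.038), and the call ended in 7 of 10 leave-outs. RAB40C, which joins a ubiquitin ligase, rose in M4 (0.79).

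**Figure D3:**
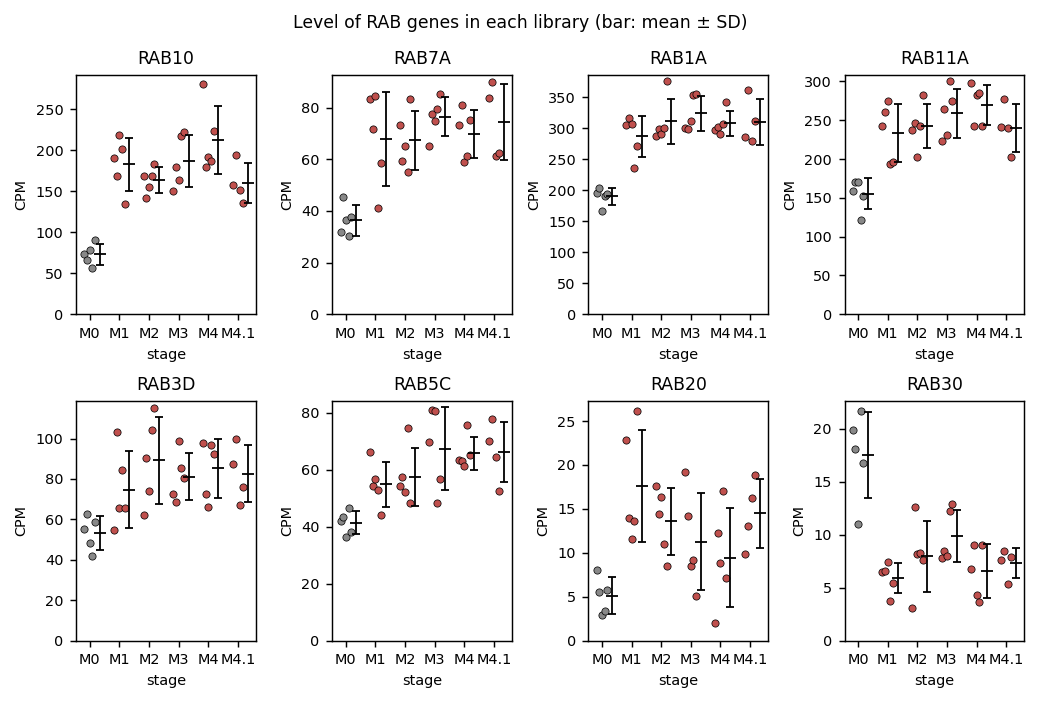
Level in CPM (vertical axis, starting at 0) of 8 RAB genes in each library by stage (horizontal axis), with M0 in grey, lesions in red and the mean ± SD as a bar (n = 5, and 4 for M4.1). RAB10, RAB1A and RAB11A show no overlap between M0 and lesions, RAB7A a single lesion library inside the M0 range, and RAB30 is lower in lesions.

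RAB27A (ENSBTAG00000012408), which anchors melanosomes to actin and docks secretory and lytic granules, fell in every stage and had the largest fall of the family in M3 and M4. M0 libraries measured 33.4, 38.5, 29.5, 30.0 and 42.9 CPM and M1 libraries 16.1, 17.7, 17.5, 14.5 and 18.8. M2 libraries measured 15.9, 18.8, 25.8, 23.7 and 16, and M3 libraries 19.7, 15, 16.7, 20.3 and 7.85. M4 libraries measured 5.19, 10.2, 8.86, 11.3 and 12.2, and M4.1 libraries 25.1, 18.5, 24.9 and 21.8. All 24 lesion libraries were below the lowest M0 library, and M4 had the lowest mean. The changes were -1.04 ± 0.20, -0.80 ± 0.20, -1.12 ± 0.20, -1.85 ± 0.21 and -0.63 ± 0.21, with adjusted p of 0.00011, 0.0017, 6.6e-05, 6.4e-08 and 0.018. The M4.1 call ended without M4.1 replicate 2, at an adjusted p of 0.067. Of 8 melanocyte markers only MITF, a melanocyte transcription factor that other cells also use, was listed in every table, and it fell in all 5 stages (3.74 to 7.46 CPM in M0 and 0.00 to 2.32 in lesions). The other 7 melanocyte markers were not analysed here. The part of melanocytes, glands or hair follicles in the fall of RAB27A was not tested.

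The remaining roles held few genes. RAB32 (ENSBTAG00000009784), which helps build melanosomes and other lysosome-related organelles, rose in M4 only against M0 (0.89 ± 0.22, adjusted p = 0.0016). RAB28, a RAB of the cilium, rose in M2 only (0.91 ± 0.35, adjusted p = 0.039). It had 5 to 19 reads per library outside M4 and 3 to 10 within it, and its M2 call ended in 6 of 10 leave-outs. RAB29, a regulator of the kinase LRRK2, had 1 to 23 reads per library and was not called, and the widest of its intervals (2 SE either side) was -1.17 to 0.61, in M3. Of the 10 genes called in no comparison with M0, the most tightly bounded was RAB14, a RAB between Golgi and endosomes, with intervals (2 SE either side) of -0.23 to 0.16, -0.19 to 0.19, -0.29 to 0.10, -0.23 to 0.16 and -0.32 to 0.09. RAB13, which serves tight junctions, had values of 0.17, 0.09, 0.18, 0.11 and 0.19, and RAB35 of -0.16, -0.09, 0.07, 0.11 and -0.11.

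Comparing M4.1 with M4 sets chronic lesions with a renewed active area beside chronic lesions. The labels do not show any lesion followed over time. Here 2 RAB genes were higher (2.25% of all tested genes were) and 3 lower (2.05%). RAB27A and RAB31 were higher in M4.1, and RAB32, RAB9A and RAB5A lower. RAB32 measured 30.4, 15.9, 25.9, 28.8 and 25.2 CPM in M4 and 10.5, 10.8, 9.59 and 8.69 in M4.1, with no overlap. The change was -1.35 ± 0.24 (adjusted p = 0.017). For RAB27A the change was 1.22 ± 0.22 (adjusted p = 0.017), with every M4.1 library of the values above exceeding every M4 library, so its level in M4.1 lay between M4 and M0. RAB31 rose by 1.24 ± 0.31 (adjusted p = 0.033), with M4.1 replicate 2 at 36.1 CPM inside the M4 range.

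RAB9A measured 84.3, 49.3, 69.3, 58.7 and 60.3 CPM in M4 and 46.7, 47.1, 31.3 and 33.3 in M4.1, a change of -0.70 ± 0.19 (adjusted p = 0.035). RAB5A measured 86.7, 61.6, 120, 77.3 and 119 in M4 and 64.8, 62.0, 64.8 and 55.5 in M4.1, a change of -0.59 ± 0.17 (adjusted p = 0.046). All RAB9A values of M4 were above those of M4.1, whereas the RAB5A groups overlapped. RAB25 (-0.92 ± 0.30, adjusted p = 0.065) and RAB24 (-0.96 ± 0.35, adjusted p = 0.099) were lower without passing the threshold. The median of the 38 genes was -0.12, beside 0.02 over all genes. Of the 9 RABs that rose in every stage against M0, none was called here by edgeR or DESeq2, and 3 had an unadjusted p under 0.05 and an interval (2 SE either side) below 0. These were RAB10 at -0.41 ± 0.16 (adjusted p = 0.12), RAB12 at -0.27 ± 0.11 (adjusted p = 0.13) and RAB6A at -0.24 ± 0.10 (adjusted p = 0.15), and the RAB6A groups did not overlap. The other 6 lay between -0.17 (RAB11A) and 0.09 (RAB7A), with intervals that include 0.

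These calls depend on single libraries, and those of RAB5A, RAB31 and RAB9A ended in 7, 6 and 5 of 9 leave-outs. Without M4 replicate 1 or M4.1 replicate 3, 0 RAB genes and 0 of all tested genes were called. For RAB27A and RAB32 the fold change then moved little (1.08 to 1.31 and -1.48 to -1.28 over all leave-outs) and the adjusted p reached 0.055 at most. With M4 replicate 3, M4 replicate 5 or M4.1 replicate 4 left out, 1 gene was higher and 1 lower, and without M4.1 replicate 1 these were 1 and 2. Over all tested genes, 5 to 216 were called in these fits, beside 233 higher and 213 lower in the main fit. Without M4 replicate 2, 2 were higher and 5 lower, with RAB25 and RAB2A added, and 847 of all tested genes were called. With the replicate number as a block, 1 was higher and 1 lower, with only these 2 groups fitted 2 were higher and 1 lower, and DESeq2 called 2 higher and 5 lower.

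Comparing M4 with M2 sets the chronic stage against the acute ulcer. In M4 against M2, which shares the M4 libraries with the comparison above, RAB32 was higher (1 of 38, beside 1.79% of all tested genes) and RAB27A and RAB31 lower (2 of 38, beside 1.32%). RAB32 measured 7.74, 8.53, 7.22, 13.1 and 17.5 CPM in M2, and changed by 1.23 ± 0.22 (adjusted p = 0.018). The groups overlapped, because M2 replicate 5 at 17.5 CPM was above the lowest M4 library. RAB27A changed by -1.05 ± 0.21 (adjusted p = 0.024) and RAB31 by -1.17 ± 0.29 (adjusted p = 0.037), both without overlap. Below the threshold, RAB25 was at 0.89 ± 0.28 (adjusted p = 0.067), RAB9A at 0.54 ± 0.17 (adjusted p = 0.069) and RAB5A at 0.48 ± 0.16 (adjusted p = 0.075).

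Leaving out M2 replicate 3 or M4 replicate 1 left 0 calls in this comparison. Without M2 replicate 1, 2 or 4 or M4 replicate 5, 1 gene was higher and 1 lower, and without M4 replicate 3 only RAB32 remained. Over all tested genes, 16 to 35 were called in these fits, beside 186 higher and 137 lower in the main fit. Without M2 replicate 5, 6 were higher and 2 lower, the added genes being RAB25, RAB2A, RAB4A, RAB5A and RAB9A. Without M4 replicate 2, 6 were higher and 3 lower, with RAB11B, RAB25, RAB2A, RAB5A and RAB9A added as higher and RAB7B as lower. Calls over all tested genes also grew there, to 900 without M2 replicate 5 and 785 without M4 replicate 2. The DESeq2 Wald test called 6 higher and 2 lower, and a fit with the replicate number as a block 1 and 1.

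**Figure D4:**
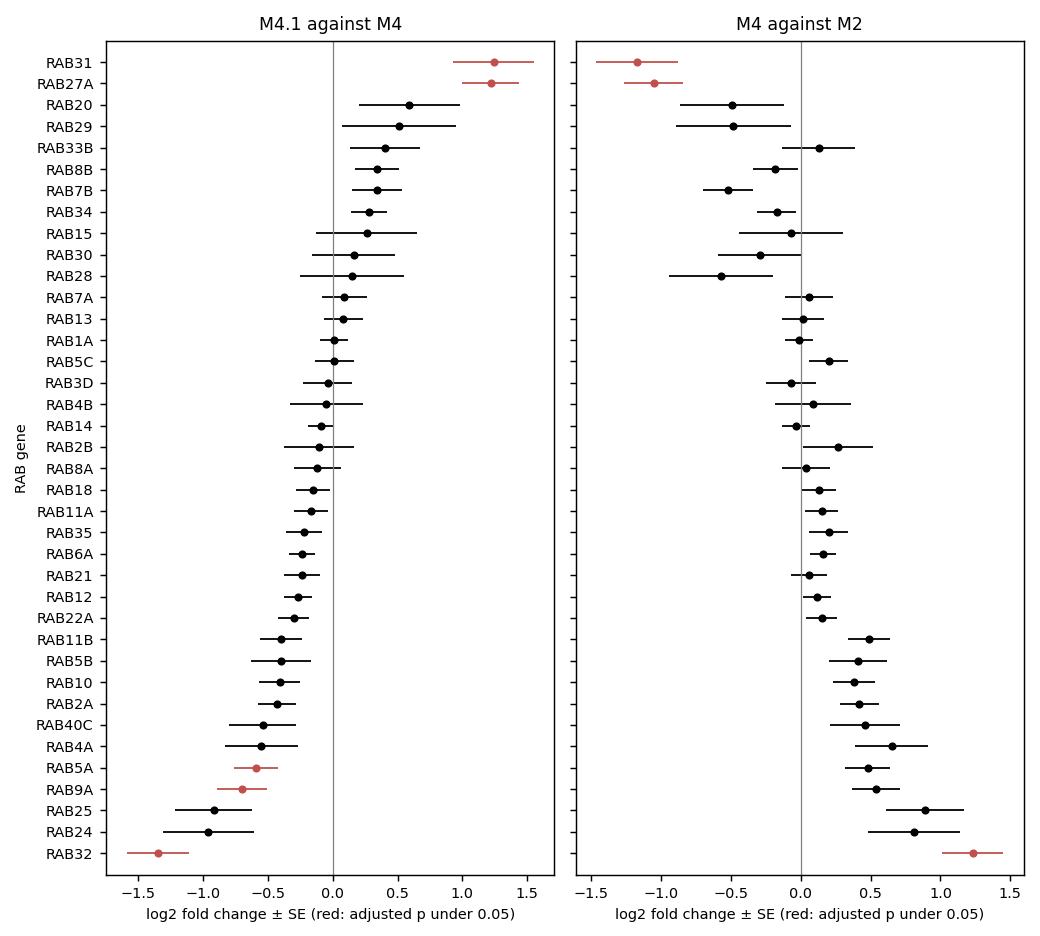
Log2 fold change ± SE (horizontal axis) of the 38 RAB genes, ordered by their change in M4.1 against M4 (left) and shown in the same order for M4 against M2 (right), with red for adjusted p under 0.05. RAB31 and RAB27A are higher in M4.1 and lower in M4, RAB32 the reverse, and both panels share the M4 libraries.

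Markers of suprabasal keratinocytes, the differentiating layers of the epidermis, also differed between M4 and M4.1. The summed level of 6 such markers (KRT1, KRT10, DSG1, DSC1, IVL and LOR) was 44034 to 218149 CPM in M4 and 2428 to 29104 in M4.1, without overlap, and LOR had no reads in M4.1. In M2 it was 2085 to 7669 CPM in 4 libraries and 69589 in M2 replicate 5. M2 replicate 5 also had the highest M2 values of RAB32 (17.5 CPM), RAB25 (34.8), RAB9A (64.7) and RAB5A (84.9). M4 replicate 2 had the lowest marker sum of M4 and the lowest M4 values of RAB32 (15.9), RAB9A (49.3) and RAB5A (61.6). Its RAB25 value (31.5) was not the lowest of M4. Such extremes were not particular to these genes. M2 replicate 5 was also highest in M2 for RAB10 (183), RAB11A (282) and RAB1A (376). Summed over the 38 RAB genes, it was the highest M2 library (2740 CPM), and M4 replicate 2 the lowest M4 library (2510). Of the 6 markers, 1 was called lower in M4.1 against M4 and 1 higher in M4 against M2. RAB32, RAB9A and RAB5A were lower in M4.1 than in M4, as the marker sum was, whereas RAB27A and RAB31 were higher. Whether RAB levels followed these markers was not tested.

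Hair follicle markers also differed, with a summed level of 0.00 to 6.12 CPM in M4 and of 2.22, 236, 388 and 0.636 in the 4 M4.1 libraries, and 4 of 5 were called higher in M4.1. RAB27A measured 25.1, 18.5, 24.9 and 21.8 CPM in these 4 M4.1 libraries, in the same order. Several other cell types shifted the opposite way to the suprabasal markers. The sum of 5 endothelial markers was 66.7 to 75.8 CPM in M4 and 97.0 to 149 in M4.1, without overlap, and 2 of the 5 were called higher. The sum of 5 smooth muscle markers was 100 to 304 CPM in M4 and 345 to 791 in M4.1, also without overlap, and the 5 had adjusted p of 0.059 to 0.16. Of 5 sebaceous markers only ELOVL3, a fatty acid elongase, was called higher in M4.1 against M4. The sebaceous sum was 1382 to 1645 CPM in M4 and 897 to 1617 in M4.1. Of 6 myeloid markers the sum was 32.7 to 106 CPM in M4, 86.0 to 180 in M4.1 and 64.2 to 181 in M2, and of 5 fibroblast markers 1878 to 3136, 2596 to 5821 and 3690 to 5294. In these 2 comparisons RAB31 and RAB27A moved in the same direction as the endothelial, smooth muscle, myeloid and fibroblast sums. No myeloid or fibroblast marker was called in either, and their sums in M4 and M4.1 overlapped. Against M0 some directions matched and others differed. RAB27A fell in every stage, where the median smooth muscle change was also negative but the median myeloid and fibroblast marker changes were positive. RAB31 rose in M1, M2 and M4.1, where the median myeloid and fibroblast changes were also positive but the median smooth muscle change was negative. The part of any cell type in the differences between M4, M4.1 and M2 was not tested.

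**Figure D5:**
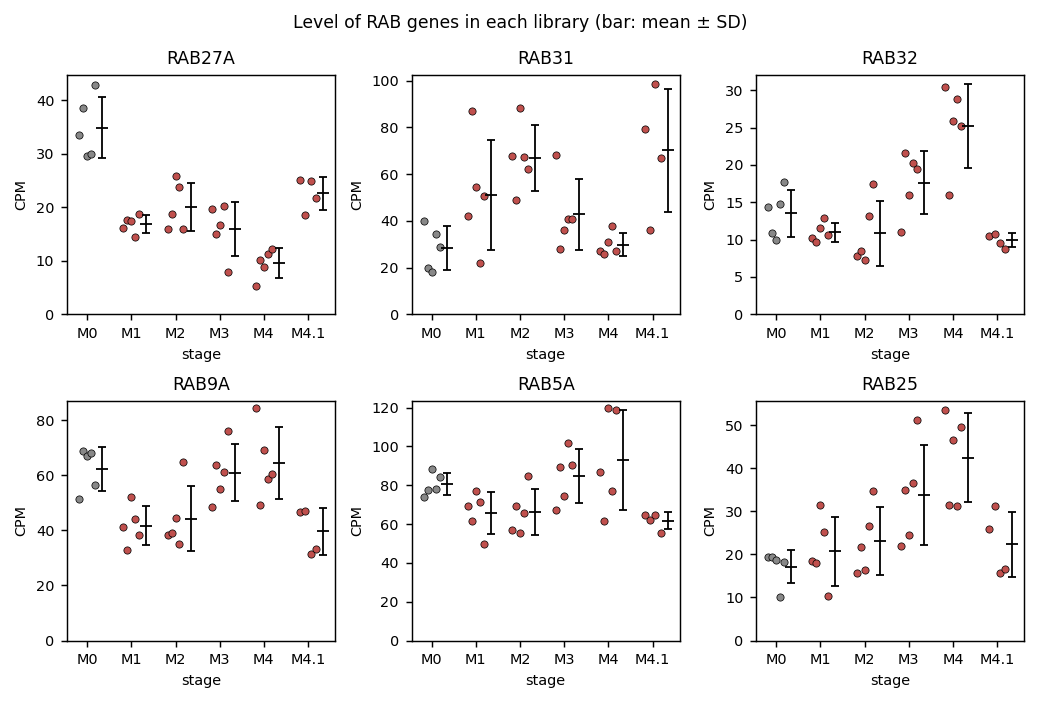
Level in CPM (vertical axis, starting at 0) in each library by stage (horizontal axis) of the 5 RAB genes called in M4.1 against M4 and of RAB25, with M0 in grey, lesions in red and the mean ± SD as a bar (n = 5, and 4 for M4.1). RAB32 is at 15.9 to 30.4 in M4 and 8.69 to 10.8 in M4.1, while RAB27A is at 5.19 to 12.2 in M4 and 18.5 to 25.1 in M4.1.

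Proteins that load, switch and read RABs were counted next. In the list of proteins that carry RABs to and from membranes (8 of 8 tested), 2, 2, 3, 3 and 1 rose in stage order and 0, 1, 1, 0 and 0 fell. That is 12.5% to 37.5% higher and 0.00% to 12.5% lower, beside the 20.2% to 21.9% higher and 18.9% to 21.1% lower of all tested genes over the stages, and each gene is 1 of only 8. RABAC1, a receptor that frees RABs from their carrier, rose by 0.83, 0.92, 0.89, 1.09 and 0.77. GDI2, the carrier that extracts GDP-bound RABs, rose in M1 to M4 by 0.29, 0.27, 0.31 and 0.32, with 0.21 in M4.1 (adjusted p = 0.072). RABGGTA, a subunit of the enzyme that attaches the lipid anchor, rose in M3 and M4 by 0.85 and 1.05.

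Exchange factors switch RABs on. Of 22 tested (of 36 symbols), 1, 3, 3, 4 and 1 rose and 3, 2, 4, 4 and 3 fell in stage order. These shares, 4.55% to 18.2% higher and 9.09% to 18.2% lower, were below those of all tested genes in each stage. RIN2, an exchange factor for RAB5, changed by -1.26, -0.97, -0.93, -1.12 and -1.19. ANKRD27, which acts on RAB21, changed by -1.0, -0.62, -1.05, -1.02 and -0.65. Both were called lower in every stage. DENND2C rose in M1 to M4 by 1.09, 1.24, 1.1 and 1.81. GTPase-activating proteins switch RABs off. Of 31 tested (of 34), 4, 2, 4, 1 and 2 rose and 7, 6, 7, 6 and 3 fell. The shares called higher, 3.23% to 12.9%, were below those of all tested genes in each stage, and the shares called lower, 9.68% to 22.6%, lay on both sides of them. TBC1D17 changed by -0.87, -0.91, -0.57, -0.50 and -0.97 and TBC1D14 by -0.52, -0.55, -0.36, -0.56 and -0.47, both called lower in every stage. TBC1D30 rose in M3 and M4 by 2.84 ± 0.71 and 3.81 ± 0.70.

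Effectors bind active RABs and do the work of transport. Of 43 tested (of 58), 8, 8, 6, 11 and 8 rose and 13, 12, 8, 7 and 11 fell. The shares, 14% to 25.6% higher and 16.3% to 30.2% lower, lay on both sides of those of all tested genes. MICALL1, which binds RAB8 and RAB35 on recycling tubules, rose by 1.02, 1.19, 1.36, 1.58 and 1.09. MYO5A, the motor that links RAB27A and RAB11A vesicles to actin, rose by 1.52, 1.35, 1.49, 1.77 and 1.37, and OPTN, a RAB8 effector and autophagy receptor, by 1.13, 1.07, 1.38, 1.41 and 1.02. MLPH, which joins RAB27A to MYO5A and was singled out after its values were seen, changed by -2.90, -3.58, -2.09, -1.90 and -2.73, called lower in every stage. The medians of these 4 lists lay between -0.27 and 0.27 in every comparison with M0.

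In the comparisons of M4 with M4.1 and M2, edgeR called members of the effector list alone among these 4 lists, a contrast between lists that was not itself tested. In M4.1 against M4, 6 of 43 effectors (14%) were lower and 0 higher, beside 2.05% and 2.25% of all tested genes. At an unadjusted p under 0.05 there were 17 of 43, beside 23.7% of all tested genes, and DESeq2 called 6. These 6, named after their values were seen, were EXPH5 (-1.82 ± 0.42) and INPP5B (-1.0 ± 0.21), APPL2 (-1.52 ± 0.36) and APPL1 (-0.53 ± 0.14), MICALL1 (-0.49 ± 0.14) and BICD2 (-1.04 ± 0.30). EXPH5 binds RAB27, the APPL proteins mark RAB5 endosomes, INPP5B cuts phosphoinositides and BICD2 links RAB6 vesicles to dynein. All 6 edgeR calls ended without M4 replicate 1 or M4.1 replicate 3, where 0 of all tested genes were called. In M4 against M2, INPP5B (0.79 ± 0.20) and EXPH5 (1.5 ± 0.38) were the 2 effectors called by edgeR, both higher (4.65%, beside 1.79% of all tested genes), and DESeq2 called 8. The edgeR calls of INPP5B and EXPH5 in M4 against M2 ended without M2 replicate 3 or M4 replicate 1, where 0 of all tested genes were called. By edgeR, 0 of 22 exchange factors and 0 of 31 GTPase-activating proteins were called in either comparison. At an unadjusted p under 0.05 these were 8 and 8 in M4.1 against M4 and 5 and 8 in M4 against M2. The share of all tested genes was 23.7% and 23.4% in these comparisons. DESeq2 called 2 and 3, and 2 and 4. Of the 8 proteins that carry RABs, 0 were called by either tool and 1 had an unadjusted p under 0.05 in each comparison.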

How the data were processed

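Messenger RNA 3′ ends of 29 skin biopsies were counted per gene. Per the submitters' processing notes, the authors worked on genome build ARS-UCD1.2 and named RSEM 1.3.1, STAR, edgeR, cutadapt 2.8 and FastQC 0.11.7 as tools, and strand handling is not given in the sources used here. The authors deposited 5 tables, each of whole-number counts for a stage and the same M0 libraries, beside a normalized signal in TMM-scaled CPM, its group means, and p-values. The deposited counts were joined over 10629 genes, and the deposited signal was not used for levels. TMM factors (0.631 to 1.29) and filterByExpr in edgeR 4.0.16 (R 4.3.3) kept 10371 genes and left out 258. A single quasi-likelihood model covered the 29 libraries, each group having its own coefficient, and p-values were adjusted by Benjamini and Hochberg over all genes tested, with calls under 0.05. Each standard error was taken as the size of the log2 change divided by the root of its F statistic. CPM levels use the joint TMM factors. No farm, animal or day is labelled, so no covariate was used.

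All 38 RAB genes matched a RefSeq gene of the same symbol by gene ID. The members and lists were chosen with earlier results of these data known. Named were the 3 largest called rises and falls per comparison, genes called in all 5 stages (8 by size of change), genes called in M4.1 against M4 or M4 against M2, and 3 genes per list by smallest p, and others are named to account for the family. Alternatives were the DESeq2 1.42.0 Wald test, a fit of only the 2 groups compared, a replicate block, RLE scaling, no low-count filter, a filter of 10 counts in 10 libraries or more, and leaving out each library. In data simulated for M4.1 against M4 over 10202 genes, the fit recovered 37 of 98 genes simulated at a fold of 2 and 84 of 98 at a fold of 4, and 9 of 130 calls were of unchanged genes. No pair of libraries of a group agreed within sampling noise (chi-square per gene of 10.9 or more over 56 pairs). Python 3.11.15 with pandas 2.3.3 and matplotlib 3.10.9 drew the plots.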

Additional observations from a re-analysis of the deposited data

Results flagged for a closer look

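Among 96 combinations of a named RAB gene and a group, 3 held a library far from the others, and chance flags about 1 in 20 such groups. RAB1A was at 376 CPM in M2 replicate 5 and at 288 to 301 in the other M2 libraries. RAB25 was at 10.2 CPM in M0 replicate 4 and at 18.3 to 19.3 in the rest of M0. RAB5C was at 75.7 CPM in M4 replicate 4 and at 61.4 to 65.1 in the others.

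The effect against M0 differed between M4.1 and M4 by a test of the difference for 5 RAB genes, by 1.22 for RAB27A, 1.24 for RAB31, -1.35 for RAB32, -0.59 for RAB5A and -0.70 for RAB9A on the log2 scale. Between M4 and M2 it differed by -1.05 for RAB27A, -1.17 for RAB31 and 1.23 for RAB32. These are the called differences of the report, all at an adjusted p under 0.05.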

How the results depend on the processing

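No result changed direction under any alternative. With each library left out in turn, RAB genes called higher against M0 were 8 to 12 in M1, 11 to 14 in M2, 11 to 16 in M3, 15 to 17 in M4 and 11 to 12 in M4.1. Those called lower were 4 to 6, 4 to 8, 2 to 4, 2 to 3 and 3 to 5. In M4.1 against M4 the ranges were 0 to 2 higher and 0 to 5 lower, and in M4 against M2 0 to 6 and 0 to 3. Calls over all tested genes ran from 0 to 847 and from 0 to 900 in the same fits. With the replicate number as a block, M4.1 against M4 had 1 higher and 1 lower, and M4 against M2 had 1 lower. Fitting only the 2 groups gave 1 lower in M4.1 against M4. DESeq2 gave 5 lower there and 6 higher in M4 against M2. The cause of these changes was not tested. RLE size factors and the stricter filter moved counts against M0 by at most 1, and neither they nor the lack of a filter moved the counts of M4.1 against M4 or M4 against M2. Replicate numbers are only numbers here. Deviations from the group mean were correlated between libraries of different groups. For same-numbered libraries the correlation ran from -0.359 to 0.414 with a median of -0.0129. For other numbers it ran from -0.442 to 0.384 with a median of -0.00481. For 7 of 29 libraries, the closest library of another group had the same number. Members with few reads, such as RAB28 and RAB29, are limited by depth.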

Other observations

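RAB19 and RAB27B were listed only in the deposited table of M4.1 and M0, so they belong to no comparison above. RAB27B, a paralog of RAB27A in secretory granule docking, had 0 to 3 reads in M0 and 5 to 11 in M4.1, with an adjusted p of 0.0087 in the authors' deposited table. RAB19 had 0 to 10 reads in M0 and 2 to 6 in M4.1, with an adjusted p of 0.39 in the authors' deposited table.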
